A study of Rattus norvegicus with 4 samples.

Results

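The AP-1 family of transcription factors was followed through single-nucleus RNA profiles of the rat orbitofrontal cortex, a frontal area that weighs the value of outcomes. The 8 members were taken by symbol from the gene list of the deposited count tables: Fos, Fosb, Fosl1, Fosl2, Jun, Junb, Jund and Jdp2. All 8 were found, each as 1 of the 25399 gene rows. AP-1 is a pair of basic leucine zipper proteins, usually 1 from the Fos side and 1 from the Jun side, that binds DNA and switches target genes on or off. Fos, Fosb and Junb are known as immediate early genes, transcribed within minutes of strong synaptic input, and a stable truncated product of Fosb is known to build up in striatum after repeated psychostimulants. The 3' counts used here do not tell that product from full-length Fosb.

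All animals were wild-type male Sprague-Dawley rats, 8 weeks old. The METH group received methamphetamine, a psychostimulant that releases dopamine, at 1 mg/kg by intraperitoneal injection for 7 days, and the control group received saline for 7 days, in a model of behavioural sensitization. All rats were killed under pentobarbital anaesthesia, so both groups share that drug, and the labels do not state the time between the last injection and death. The cortex of 4 rats per group was used and each group has 2 libraries. Which rats went into which library is not stated, so p-values measure only how much the libraries vary, part of which may be technical.

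Between 7602 and 14645 nuclei per library were kept from 8467 to 18958 barcodes, with median depths of 1963 to 3521 transcripts counted by unique molecular identifiers (UMIs). Saline replicate 1 stood apart, with the most nuclei and the lowest depth, and it supplied 2046 of the 2352 nuclei of a cluster with excitatory markers that was therefore left unnamed. Pairs of libraries shared 23 to 69 barcodes. Nuclei were grouped by clustering that did not use the 8 members or the other activity genes, and the clusters were named from marker genes: 18403 excitatory neuron-like nuclei in 8 clusters, 4482 inhibitory neuron-like nuclei split into Pvalb-, Sst-, Vip- and Lamp5-like subtypes, 4026 astrocyte-like, 3269 oligodendrocyte-like, 2908 oligodendrocyte precursor-like (OPC) and 1721 microglia-like nuclei, and smaller vascular and border groups. Among the excitatory clusters the L6 corticothalamic-like (L6 CT) cluster is called by its layer type, and the others by their 2 leading genes. The Hgf/Col8a1-led cluster also met the marker thresholds, for an L4/5 intratelencephalic type, but that name was not used for any cluster.

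The members were sparse in nuclear RNA. Levels are given as CPM, a member's UMIs scaled to a fixed total of the UMIs in its class, from UMIs summed per library, as mean ± SD over the 4 libraries. In excitatory neuron-like nuclei the sums held 8436 UMIs of Jdp2, 2429 of Junb, 873 of Fosl2, 851 of Jund, 680 of Fosb, 601 of Fos, 541 of Jun and 418 of Fosl1. These totals are not per transcript length, so they do not rank the genes by expression.

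On the Fos side, the stimulus-responsive Fos and Fosb were highest in some neurons. Fos was 13.2 ± 3.43 CPM in Vip-like interneurons, 10.2 ± 3.04 in L6 CT-like nuclei, 9.06 ± 1.31 in the Pld5/Cd200r1-led and 8.22 ± 0.994 in the Hgf/Col8a1-led excitatory clusters, against 3.61 to 5.01 in the other 5 excitatory clusters (all SD, n = 4). Astrocyte-like nuclei held 7.05 ± 2.42 CPM of Fos, 114% of its excitatory level in CPM. Per nucleus, the means of Fos were 0.0108 UMIs in astrocyte-like and 0.0369 in excitatory neuron-like nuclei. Oligodendrocyte-, OPC- and microglia-like nuclei gave 10, 8 and 4 Fos UMIs in all. Fosb was 10.6 ± 2.29 CPM in L6 CT-like, 9.26 ± 2.12 in Hgf/Col8a1-led and 8.82 ± 4.17 in Klhl1/Chst8-led nuclei. Its means were 4.20 to 7.08 in the other excitatory clusters and 1.11 to 5.11 across the inhibitory subtypes, so these spans overlapped. Per nucleus, the highest mean of Fosb was 0.0667 UMIs, in Klhl1/Chst8-led nuclei. Vip-like nuclei, the highest of these classes for Fos in CPM, held 5.11 ± 2.75 CPM of Fosb from 17 UMIs. Per nucleus, the means of Fos were 0.0405 UMIs in Vip-like and 0.0522 in Hgf/Col8a1-led nuclei.

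Fosl2, a Fos-related subunit that lacks the strong transactivation domain of Fos, had its highest neuronal level in the Pld5/Cd200r1-led cluster, at 14.7 ± 1.00 CPM with libraries between 13.3 and 15.6. It reached 19.1 ± 3.47 CPM in microglia-like nuclei, and the libraries' ranges in these classes overlapped. Per nucleus, the means of Fosl2 were 0.0194 UMIs in microglia-like and 0.0749 in Pld5/Cd200r1-led nuclei. Astrocyte-, oligodendrocyte- and OPC-like nuclei held 1.26 to 2.07 CPM. Fosl1, known as Fra-1, varied little across neurons: its means in the 8 excitatory clusters ran from 3.11 to 4.95 CPM and in the 4 inhibitory subtypes from 2.70 to 4.68. Astrocyte-, oligodendrocyte-, OPC- and microglia-like nuclei held 2.11 to 3.82 CPM of Fosl1. Its highest mean was 16.3 ± 6.71 CPM in endothelial-like nuclei, from 10 UMIs in all. Per nucleus, the means of Fosl1 were 0.0248 UMIs in endothelial-like and 0.0303 in Hgf/Col8a1-led nuclei.

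On the Jun side, Jun and Jund had higher mean CPM in glia than in excitatory neuron-like nuclei, though not in glia alone. Jun, the classical partner of Fos, was 26.1 ± 10.3 CPM in microglia-like, 19.4 ± 4.56 in OPC-like, 15.2 ± 6.27 in oligodendrocyte-like and 13.01 ± 0.455 in astrocyte-like nuclei, against 5.55 ± 0.875 in excitatory and 4.82 ± 2.02 in inhibitory neuron-like nuclei. Jund, the subunit usually described as constitutive, was 33.4 ± 12.9 CPM in microglia-like and 27.2 ± 4.87 in oligodendrocyte-like nuclei, against 8.66 ± 1.62 in excitatory neuron-like nuclei. In OPC-like nuclei Jund was 14.1 ± 5.36 and in astrocyte-like nuclei 10.8 ± 3.22, with libraries' ranges that overlapped with the excitatory one. Vip-like nuclei held 11.2 ± 2.01. Endothelial-like nuclei held 21.1 ± 7.44 CPM of Jun and 27.6 ± 16.6 of Jund, from 12 and 15 UMIs. Fibroblast-like nuclei held 16.8 ± 17.8 and 18.0 ± 7.88, from 12 UMIs each. A glial nucleus held fewer UMIs than a neuronal one, however: medians by library ran from 890 to 1302 UMIs in oligodendrocyte-like and from 2908 to 6638 in excitatory neuron-like nuclei. Counted per nucleus, Jun came to a mean of 0.0342 UMIs in excitatory neuron-like, 0.0304 in OPC-like, 0.0259 in microglia-like and 0.0202 in oligodendrocyte-like nuclei. Jund came to 0.0498, 0.0205, 0.0331 and 0.0347 UMIs per nucleus in the same order. Per nucleus, these glial means were below the excitatory mean, the reverse of the order in CPM, although the libraries' ranges overlapped with the excitatory one in all of these classes for Jun, and in microglia- and oligodendrocyte-like nuclei for Jund.

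**Figure D1:**
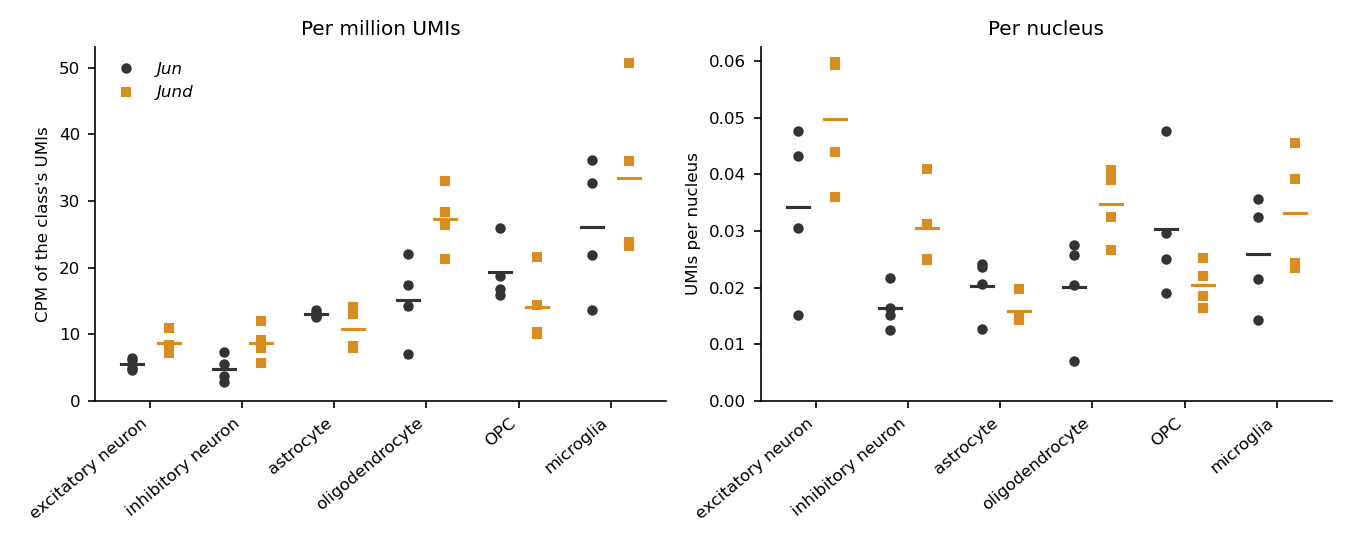
Jun and Jund in 6 classes of nuclei, on the left as CPM of the class's UMIs and on the right as UMIs per nucleus; each point is 1 of 4 libraries and bars are means. In CPM, Jun averaged 26.1 in microglia-like and 5.55 in excitatory neuron-like nuclei, while per nucleus the means were 0.0259 and 0.0342.

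Junb, an inducible Jun protein, was high in CPM in microglia-like nuclei and in some neurons. Per nucleus, its means were 0.0469 UMIs in microglia-like, 0.165 in L6 CT-like and 0.197 in Hgf/Col8a1-led nuclei. In CPM it was 46.8 ± 8.79 in microglia-like, 36.1 ± 3.48 in L6 CT-like and 32.3 ± 3.92 in Hgf/Col8a1-led nuclei. In Sst-, Lamp5- and Pvalb-like interneurons it was 10.1 to 12.4 CPM. Vip-like nuclei held 20.3 ± 6.58 CPM. In endothelial-like nuclei, with 38 Junb UMIs in all, it was at 61.6 ± 37.7 CPM.

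Jdp2, a repressor that pairs with Jun proteins, differed in CPM between some excitatory clusters. Its mean was 112 ± 3.51 CPM in the Adamts3/Galnt14-led, 109 ± 10.9 in the Pld5/Cd200r1-led and 98.7 ± 10.4 in the Glis3/Otof-led cluster, and 58.4 ± 12.3, 58.6 ± 4.02 and 53.9 ± 6.04 in the L6 CT-like, Hgf/Col8a1-led and Htr4/Trabd2b-led clusters. All libraries of the first 3 clusters, with values from 85.7 to 123 CPM, lay above all libraries of the last 3, with values from 44.8 to 75.4. The Klhl1/Chst8-led cluster, from 67.9 to 105 CPM, and the Il1rapl2/Scube1-led cluster, from 74.5 to 87.4, overlapped with both of these ranges. Per nucleus their means, 0.681 and 0.604 UMIs, were above the 0.560 of the Pld5/Cd200r1-led cluster. Oligodendrocyte-like nuclei were lowest, at 12.5 ± 4.20 CPM.

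**Figure D2:**
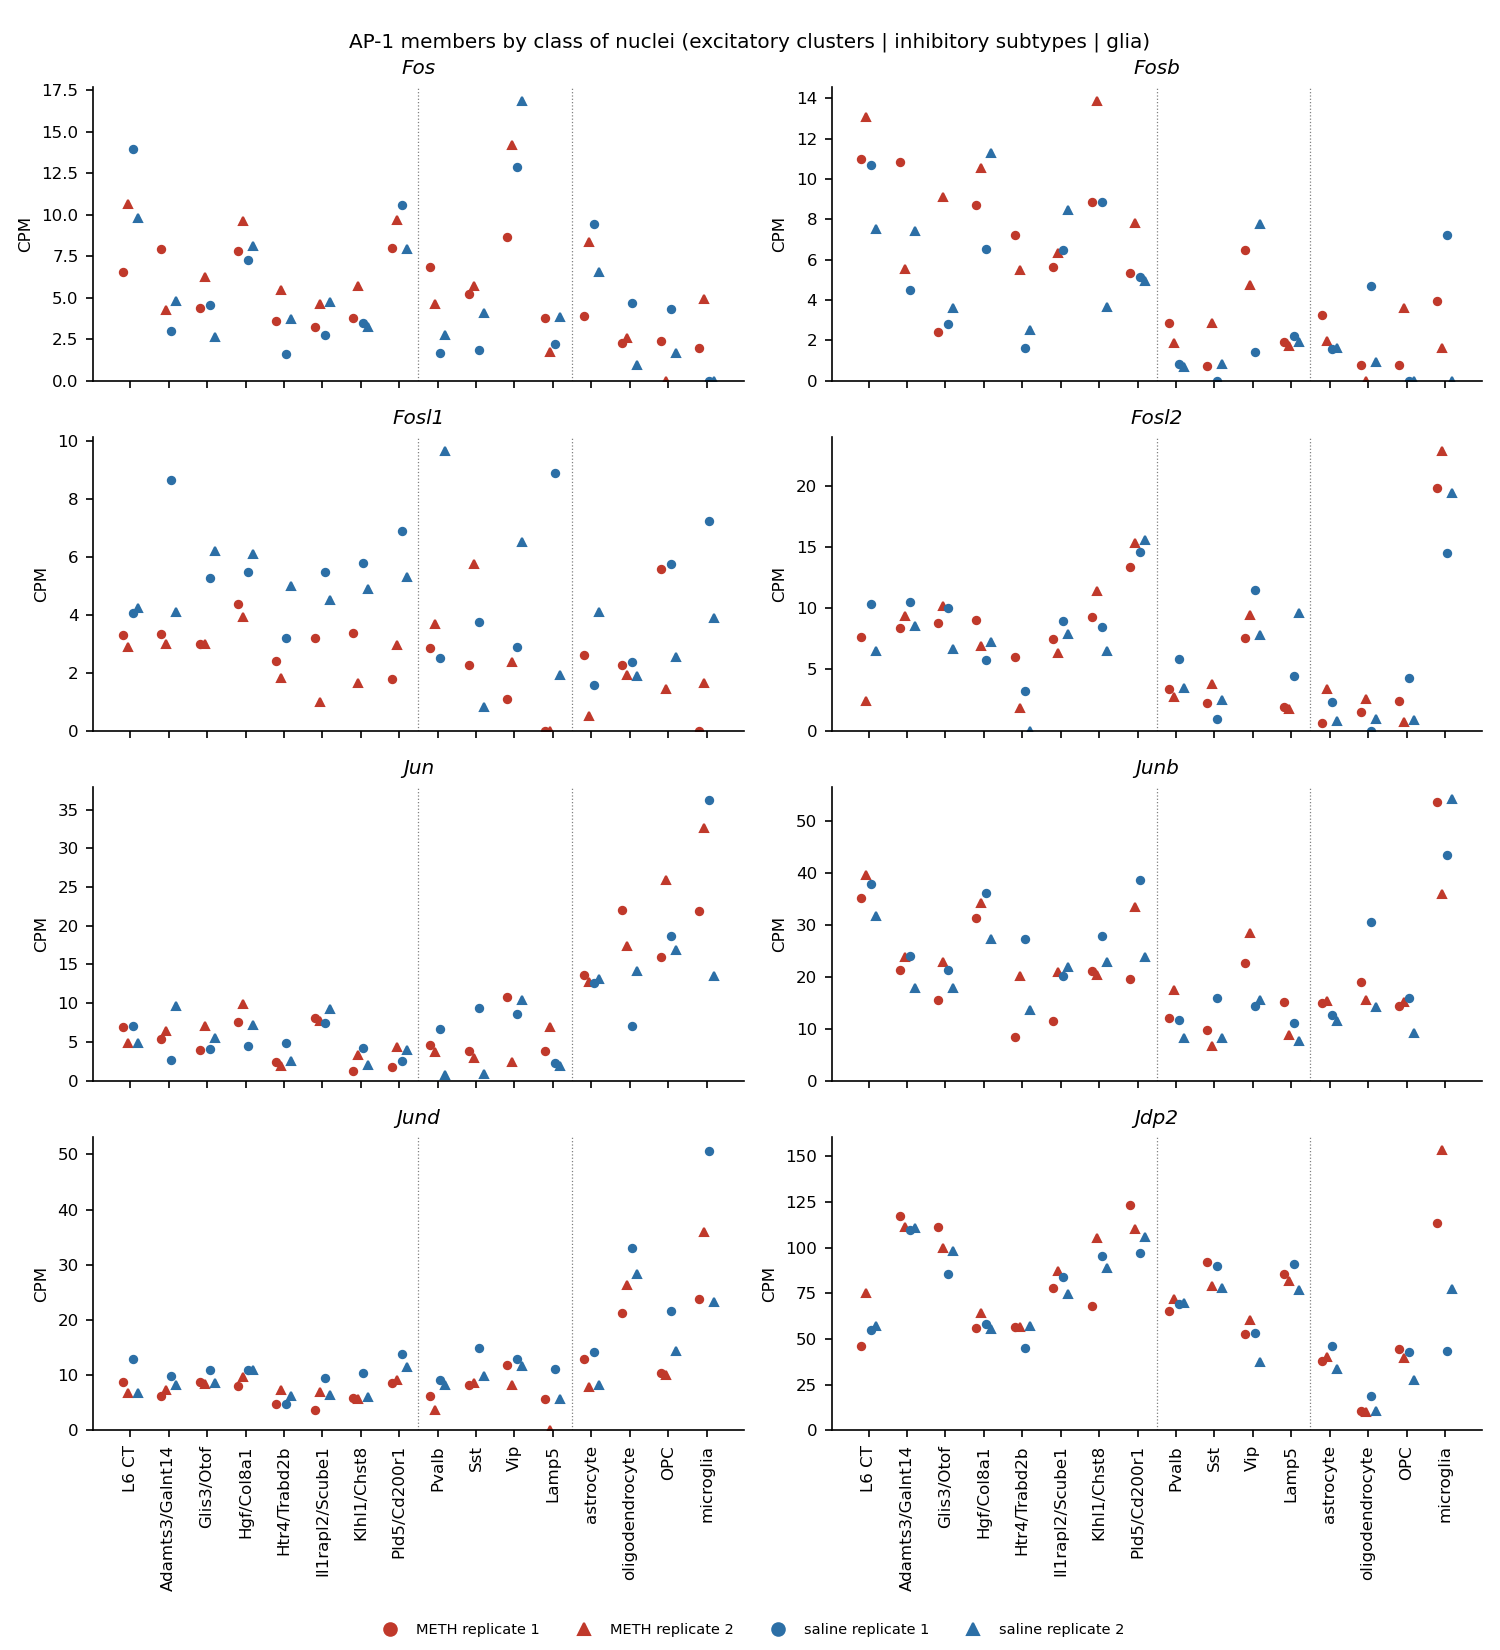
CPM of the 8 members in 16 classes, with 8 excitatory clusters, 4 inhibitory subtypes and 4 glial classes divided by dotted lines; each point is 1 library, red for METH and blue for saline. Fos and Fosb sit low in oligodendrocyte-, OPC- and microglia-like nuclei, Jun and Jund have their highest means in microglia-like nuclei, and Jdp2 is lowest in oligodendrocyte-like nuclei at 12.5 CPM.

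For most members, classes next to each other in this order could not be told apart. Ranking 18 classes, those above with endothelial- and fibroblast-like nuclei, gives 17 neighbouring pairs, and the libraries' ranges overlapped in 17 of 17 pairs for Fos, Fosb, Fosl2, Junb and Jund, in 16 for Fosl1 and Jun, and in 14 for Jdp2. These levels describe clusters made from the same nuclei, so no test was run on them. Fewer nuclei carrying a transcript and fewer copies per nucleus cannot be told apart in summed counts.

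RNA freed from broken cells adds UMIs to every droplet. Slc17a7, the vesicular glutamate transporter that defines excitatory neurons, stood in the glial classes at 15.1% to 22.5% of its excitatory level. Jdp2 in oligodendrocyte-like nuclei was at 14.5% of its excitatory level and Fosl2 in the same nuclei at 14.1%, both below the 18.3% of Slc17a7 there. Fosl2 in astrocyte-like nuclei, at 20.3% from 12 UMIs, was close to the 15.1% of Slc17a7. In OPC-like nuclei Fosb was at 15.7% from 6 UMIs and Fosl2 at 23.1% from 8, against 18.1% of Slc17a7. Fosb in oligodendrocyte-like nuclei was at 22.9% from 4 UMIs. Fosl1 in the glial classes was at 50.1% to 90.7% of its excitatory level, from 4 to 16 UMIs per class. How much of any of these levels is free RNA was not tested. In mean CPM, Jun and Jund stood above their excitatory level in all 4 glial classes, Jun at 235% to 470% and Jund at 125% to 386%. Jdp2 in microglia-like nuclei was at 112% of its excitatory level in CPM. Per nucleus, its means were 0.0997 UMIs in microglia-like and 0.520 in excitatory neuron-like nuclei.

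At an equal depth of 1000 UMIs per nucleus, a UMI of Fos was found in 0.610% to 0.844% of excitatory neuron-like nuclei by library, of Fosb in 0.542% to 0.931%, of Junb in 2.41% to 3.00% and of Jdp2 in 7.31% to 8.38%. In oligodendrocyte-like nuclei, the class with the lowest Jdp2 level in CPM, the Jdp2 share was 0.880% to 4.20%. Without that thinning the excitatory shares ran from 1.89% to 4.61% for Fos and from 21.8% to 43.0% for Jdp2, since the libraries differ in depth.

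Genes with a like pattern over the 18 classes were ranked by Pearson's r of mean log2(CPM + 1), as a description of points that share libraries and depth. Closest to Fosb was Npas4, an activity-induced neuronal factor (r = 0.88), and closest to Junb was Ier5, an immediate early response gene (r = 0.84). Closest to Jun was Tmem42 (r = 0.92), to Jund Ppp1ca, a catalytic subunit of protein phosphatase 1 (r = 0.93), to Jdp2 Phtf1 (r = 0.89), to Fosl2 Fam117b (r = 0.88) and to Fos Wdr36 (r = 0.81). The next in line were Znfx1 and Ppl for Fosb (r = 0.87 and 0.85) and Fam241a and Actr3 for Junb (r = 0.83 and 0.82). Fosl1 did not reach the level needed for this ranking.

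METH was then compared with saline within each class, with the library as the replicate. No member was called at an adjusted p under 0.05 (edgeR's quasi-likelihood test with Benjamini-Hochberg adjustment over all genes of a class) in any of 18 classes, the excitatory and inhibitory sums included, in which at least 1 member had counts enough to be tested. DESeq2 called none either. Unadjusted p-values were under 0.05 for 2 of 8 members in excitatory neuron-like nuclei, Fosl1 and Fosb, where 529 of 15008 genes (3.52%) had one. Few genes of any kind were called. The share called was 0.00666% in excitatory neuron-like nuclei, 0.00935% in L6 CT-like nuclei and 0.00936%, 0.00816%, 0.00875%, 0.062%, 0.026%, 0% and 0.0532% in the clusters led by Adamts3/Galnt14, Glis3/Otof, Hgf/Col8a1, Htr4/Trabd2b, Il1rapl2/Scube1, Klhl1/Chst8 and Pld5/Cd200r1. It was 0.0169% in inhibitory neuron-like nuclei and 0.0315%, 0.0108%, 0.0232% and 0.0559% in the Pvalb-, Sst-, Vip- and Lamp5-like subtypes. Among glia it was 0.00991% in astrocyte-like, 0.0223% in oligodendrocyte-like, 0.0204% in OPC-like and 0% in microglia-like nuclei. Cst3, which encodes the protease inhibitor cystatin C, was the 1 gene called in excitatory neuron-like nuclei (log2 0.90, SE 0.0787, adjusted p = 0.00467).

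Fosl1 showed the largest difference among the members in excitatory neuron-like nuclei. It had 75 and 63 UMIs in the METH libraries and 148 and 132 in the saline libraries, or 3.14 and 2.75 CPM against 5.78 and 5.19. Both METH libraries lay below both saline libraries. The log2 change was -0.88 (SE 0.180, unadjusted p = 0.000545, adjusted p = 0.921), and -0.80 without saline replicate 1, the library that stood apart. Both METH libraries lay below both saline libraries in each of the 8 excitatory clusters when these were taken one by one, which held for 4 of the 15008 genes tested (0.0267%). Some of these arrangements rest on few UMIs. In the Htr4/Trabd2b-led cluster, where Fosl1 was not tested, there were 2 and 1 under METH and 2 and 4 under saline. In the Klhl1/Chst8-led cluster there were 8 and 2 against 15 and 12, and in L6 CT-like nuclei 9 and 6 against 11 and 13. The clusters come from the same 4 libraries and are not 8 separate tests of treatment. Where Fosl1 was tested in a single cluster its log2 change ran from -1.32 (SE 0.434, adjusted p = 0.632, Pld5/Cd200r1-led) to -0.38 (SE 0.507, adjusted p = 0.983, L6 CT-like). In inhibitory neuron-like nuclei it had 9 and 12 UMIs under METH and 13 and 21 under saline (log2 -0.81, SE 0.436, adjusted p = 0.998). The lower values were not confined to neurons. In all nuclei kept, the unnamed ones included, the log2 change of Fosl1 was -0.90 (SE 0.176, adjusted p = 0.606). Its mean CPM was lower under METH in 3 of 4 inhibitory subtypes and in 4 of 4 glial classes. The glial classes held 4 to 16 Fosl1 UMIs each, and Fosl1 was not tested there. The share of all genes with such lower means was not counted.

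The protein-coding genes next to Fosl1 in the rat RefSeq order were examined as well. Drap1, Bles03 and Fibp were at log2 changes of -0.11 (SE 0.114), -0.36 (SE 0.199) and -0.20 (SE 0.114) in excitatory neuron-like nuclei. For each of them both METH libraries lay below both saline libraries, as for 19.8% of the genes tested. Ctsw, 3 genes away, was at 0.0837 and 0.0436 CPM under METH against 0.429 and 0.315 under saline and was not tested. Tsga10ip, 3 genes away on the other side, went the other way. It was at 9.08 and 15.3 CPM under METH against 4.61 and 4.45 under saline (log2 1.45, SE 0.243, adjusted p = 0.921). In the Il1rapl2/Scube1-led cluster Tsga10ip was called higher (log2 1.76, SE 0.291, adjusted p = 0.00122), while Fosl1 was at -1.15 (SE 0.482, unadjusted p = 0.0221). These neighbours were looked at after the Fosl1 values were seen.

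**Figure D3:**
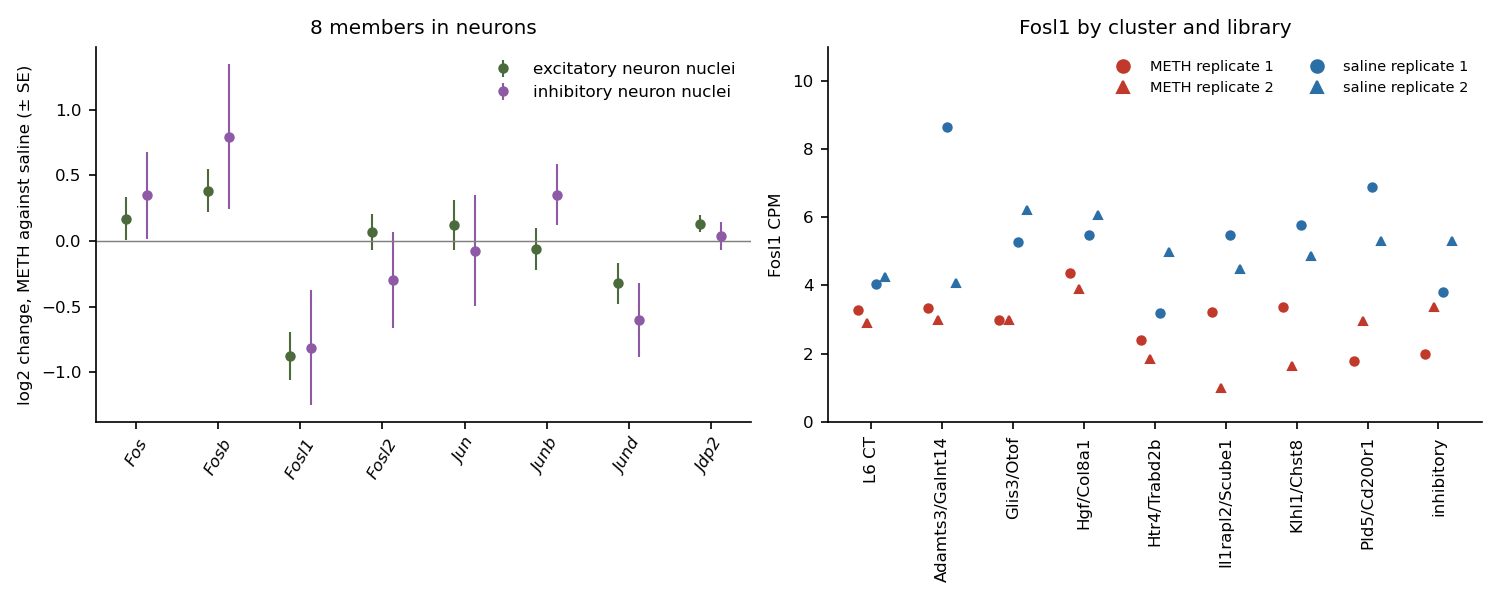
On the left, log2 changes of the 8 members, METH against saline, with SE bars in excitatory and inhibitory neuron-like nuclei; on the right, Fosl1 CPM in each library for the 8 excitatory clusters and for inhibitory neuron-like nuclei. In every excitatory cluster both METH libraries lie below both saline libraries, and no change on the left passed the adjusted threshold. The Htr4/Trabd2b-led points rest on 1 to 4 UMIs each.

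Fosb was next by unadjusted p. Its levels were 6.87 and 8.89 CPM under METH and 5.86 and 6.38 under saline in excitatory neuron-like nuclei (log2 0.38, SE 0.162, unadjusted p = 0.0371, adjusted p = 0.999). Each METH library was above each saline library, as was the case for 12.1% of the genes tested. Jdp2, at 86.7 and 92.9 against 82.1 and 84.0 CPM, shared that arrangement (log2 0.13, SE 0.0641). Jund lay below, at 7.20 and 8.07 against 10.97 and 8.38 CPM (log2 -0.32, SE 0.159), as did 19.8% of the genes. Taken one by one, 4 of the 8 excitatory clusters had both METH libraries below for Jund, an arrangement that 16.3% to 20.4% of the genes had in a single cluster. When nuclei were thinned to 1000 UMIs the excitatory log2 change of Jund turned to 0.053.

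Fos itself, the usual readout of recent activity, was 5.74 and 7.24 CPM under METH and 6.17 and 5.51 under saline (log2 0.17, SE 0.165), and the groups overlapped. Jun was at 4.98 and 6.50 against 4.65 and 6.06 CPM (log2 0.12, SE 0.189). Junb was at 20.9 and 27.4 against 28.6 and 22.4 CPM (log2 -0.06, SE 0.158). Fosl2 was at 9.04 and 9.11 against 9.60 and 7.95 CPM (log2 0.07, SE 0.140). The groups overlapped for all 3.

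In inhibitory neuron-like nuclei each METH library was above each saline library for Fos, Fosb and Junb, an arrangement seen for 16.5% of the genes tested, and below them for Fosl1, Fosl2 and Jund, seen for 15.8%. The log2 changes were 0.35 (SE 0.331), 0.80 (SE 0.553), 0.35 (SE 0.233), -0.81 (SE 0.436), -0.30 (SE 0.366) and -0.60 (SE 0.282), and all adjusted p-values were 0.998. The Fosb value rests on 35 UMIs. Of the members, Jund alone was under 0.05 before adjustment. The test of whether the METH effect differed between inhibitory and excitatory neuron-like nuclei called 0 of 14950 genes in edgeR (0%), with 547 at an unadjusted p under 0.05, and 0 in DESeq2. Junb had the smallest p of the members there (log2 0.43 more in inhibitory nuclei, SE 0.213, unadjusted p = 0.0579).

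Among glia, Jdp2 in microglia-like nuclei differed most. It had 57 and 94 UMIs under METH and 6 and 40 under saline, or 113 and 154 CPM against 43.4 and 77.5 (log2 0.97, SE 0.278, unadjusted p = 0.00241, adjusted p = 0.99982). Saline replicate 1 held 154 microglia-like nuclei against 492 to 562 in the other libraries, and without it the log2 change of Jdp2 was 0.80 (adjusted p = 0.502). In oligodendrocyte-like nuclei Jun was at 22.0 and 17.4 CPM under METH and 7.07 and 14.2 under saline, the lowest from 3 UMIs (log2 0.73, SE 0.419). In OPC-like nuclei Jund was at 10.3 and 10.1 against 21.6 and 14.3 CPM (log2 -0.74, SE 0.417). In Vip-like nuclei Junb was at 22.7 and 28.4 against 14.3 and 15.6 CPM (log2 0.77, SE 0.373). The adjusted p-values of these 3 were 0.99958, 0.99863 and 0.9985.

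No tested gene of the wider AP-1 pathway was called in the excitatory or the inhibitory sums. Its genes were not counted in single clusters and subtypes. None of 11 bZIP partners tested was called in excitatory neuron-like nuclei, nor of 18 upstream kinases and factors, 9 phosphatases and degradation factors, 21 co-induced activity genes and 10 reported AP-1 or FosB targets. Their median log2 changes were -0.00072, 0.028, 0.084, 0.046 and 0.042, beside 0.094 for the 8 members and 0.00096 for all genes. The genes with the smallest p in each list were Atf7 (log2 -0.12, SE 0.061) and Mafg (0.10, SE 0.0798) among the partners, and Mapk10, the neuronal JNK kinase that phosphorylates Jun (0.14, SE 0.0597), and the JNK-activating kinase Map2k7 (-0.32, SE 0.210) upstream. They were the MAP kinase phosphatases Dusp1 (-0.25, SE 0.115) and Dusp4 (0.26, SE 0.140) among the phosphatases, and the nuclear receptor Nr4a2 (-0.59, SE 0.160) and Klf10 (-0.26, SE 0.126) among the activity genes. Among the targets they were Mmp3, a matrix protease (0.97, SE 0.485), and the synaptic kinase Camk2a (0.11, SE 0.0570). The adjusted p-values of these 10 genes were 0.999. In inhibitory neuron-like nuclei the 5 lists likewise had no called gene, with medians of 0.039, -0.031, -0.015, -0.063 and 0.023 against -0.0028 for all genes.

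Fos is widely used as a mark of recently active neurons, and the nuclei with a Fos UMI were compared with the nuclei of the same library without one. All excitatory neuron-like nuclei were thinned to 2000 UMIs, which leaves 45 Fos-positive of 3792 nuclei in METH replicate 1, 44 of 3086 in METH replicate 2, 72 of 5864 in saline replicate 1 and 44 of 3512 in saline replicate 2. These are 1.19% (0.867% to 1.58%), 1.43% (1.04% to 1.91%), 1.23% (0.962% to 1.54%) and 1.25% (0.912% to 1.68%), with exact Clopper-Pearson 95% intervals for counting error. The share differed between METH and saline by less than the spread between libraries (means 1.31% and 1.24%, exact permutation test, two-sided p = 1, smallest possible p 0.333). Fos-positive nuclei were too few in inhibitory and glial classes for the same comparison. A single Fos UMI can also come from free RNA: at 2000 UMIs, 0 of 73, 0 of 146, 0 of 7 and 1 of 88 oligodendrocyte-like nuclei had one, in the same order of libraries. At 1000 UMIs, where more of these nuclei remain, their Fos shares ran from 0.179% to 0.699% against 0.610% to 0.844% in excitatory neuron-like nuclei, so the ranges met. How many of the Fos-positive nuclei carry Fos from free RNA was not tested.

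Fos-positive nuclei carried more of 3 other members. Fosb rose by 3.03 on the log2 scale (SE 0.472, adjusted p = 1.37e-07), Junb by 2.39 (SE 0.261, adjusted p = 1.43e-16) and Fosl2 by 2.26 (SE 0.489, adjusted p = 0.00122), each higher in 4 of 4 libraries in edgeR's quasi-likelihood test with the library as a block. That is 3 of 7 members called, all higher, where 0.897% of 11705 genes were called in either direction and 0.376% higher. DESeq2 called 3 members as well. Fosb and Fosl2 rest on few UMIs: the call for Fosb was lost without saline replicate 1 (adjusted p = 0.196) and that for Fosl2 without saline replicate 2 (adjusted p = 0.0644), and both were lost when nuclei were thinned to 1000 UMIs (adjusted p = 0.213 and 0.569).

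A Junb UMI was found in 24.4% of the Fos-positive nuclei of METH replicate 1 (interval 12.9% to 39.5%), 36.4% in METH replicate 2 (22.4% to 52.2%), 18.1% in saline replicate 1 (9.98% to 28.9%) and 27.3% in saline replicate 2 (15.0% to 42.8%). In the Fos-negative nuclei the shares were 3.58%, 5.82%, 4.99% and 4.76%. The lowest positive share was above the highest negative one. Fosb was found in 4.44%, 6.82%, 12.5% and 6.82% of positive nuclei, from 2, 3, 9 and 3 nuclei, against 1.31%, 1.31%, 0.725% and 1.01% of negative ones. Fosl2 was found in 8.89%, 9.09%, 8.33% and 9.09% of positive nuclei, from 4, 4, 6 and 4, against 1.33%, 1.71%, 1.95% and 1.38% of negative ones.

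The other 4 members were not called. Jdp2 was at log2 0.57 (SE 0.213, adjusted p = 0.256), with UMIs in 9 of 45, 14 of 44, 15 of 72 and 12 of 44 positive nuclei, against 15.7%, 16.6%, 14.6% and 14.9% of negative ones, a higher share in each library. Jun was at 0.69 (SE 0.891, adjusted p = 0.902), from 4 UMIs in the 205 positive nuclei of all libraries. Jund was at -1.12 (SE 1.03, adjusted p = 0.825) and Fosl1 at -1.06 (SE 1.42, adjusted p = 0.907), from 2 UMIs and 1 UMI.

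**Figure D4:**
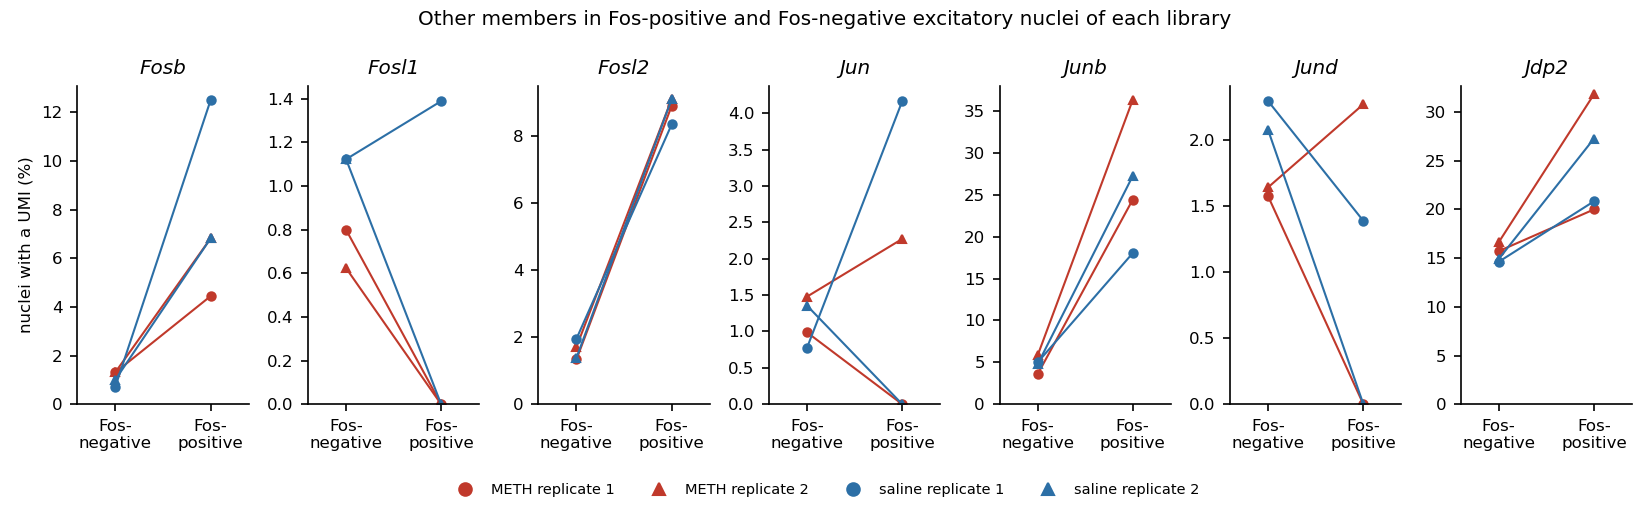
Share of excitatory neuron-like nuclei with a UMI of each other member, in Fos-negative and Fos-positive nuclei of the same library at 2000 UMIs per nucleus; each line is 1 library and each panel has its own scale from 0. The share with a UMI of Fosb, Fosl2, Junb or Jdp2 is higher in positive nuclei in all 4 libraries, while those of Fosl1, Jun and Jund are higher in some libraries and lower in others.

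Genes known to be induced together with Fos moved with it. Of 21 co-induced activity genes tested, 11 rose and none fell, with a list median of log2 1.86 against -0.14 for all genes. The transcription factors Egr4 (log2 2.90, SE 0.285), Npas4 (2.46, SE 0.435), Nr4a3 (2.04, SE 0.182), Nr4a1 (1.93, SE 0.172) and Egr1 (1.41, SE 0.260) rose, as did the antiproliferative factor Btg2 (2.21, SE 0.231). The synaptic gene Arc rose by 1.88 (SE 0.342), the kinase Sik1 by 1.87 (SE 0.514), the secretogranin Scg2 by 1.81 (SE 0.338), the neurotrophin Bdnf by 1.12 (SE 0.241) and the scaffold Homer1 by 0.93 (SE 0.0688). Homer1, the most abundant of them, went from 1823, 1267, 1203 and 1250.4 CPM in negative nuclei to 3433, 2364, 2458 and 3102 in positive ones. Scg2 and Sik1 were each higher in 3 of 4 libraries and the others in all 4. Their adjusted p-values were at most 0.0388. The call for Sik1 was lost in 6 of 8 alternatives (adjusted p-values over all 8 from 0.0212 to 0.507). Thinned to 1000 UMIs, the calls for Npas4 (log2 0.89, adjusted p = 0.798), Scg2 (0.48, adjusted p = 0.874), Bdnf (adjusted p = 0.236) and Egr1 (adjusted p = 0.0950) were lost as well, and that for Scg2 also without saline replicate 1 (adjusted p = 0.329).

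Dusp1, a phosphatase that turns off the kinases upstream of AP-1, rose by 1.94 (SE 0.357, adjusted p = 2.47e-05) and was the 1 gene called of 7 tested among phosphatases and degradation factors, all 7 with positive changes and a median of 0.86; its call was lost at 1000 UMIs (adjusted p = 0.0762). Outside the lists the largest rises were those of Rgs4, a brake on G protein signalling (2.12, SE 0.388), and Tiparp, a mono-ADP-ribosyltransferase (1.90, SE 0.321). None of 8 bZIP partners, 17 upstream kinases and factors and 6 reported targets was called, with medians of -0.11, -0.094 and -0.11.

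**Figure D5:**
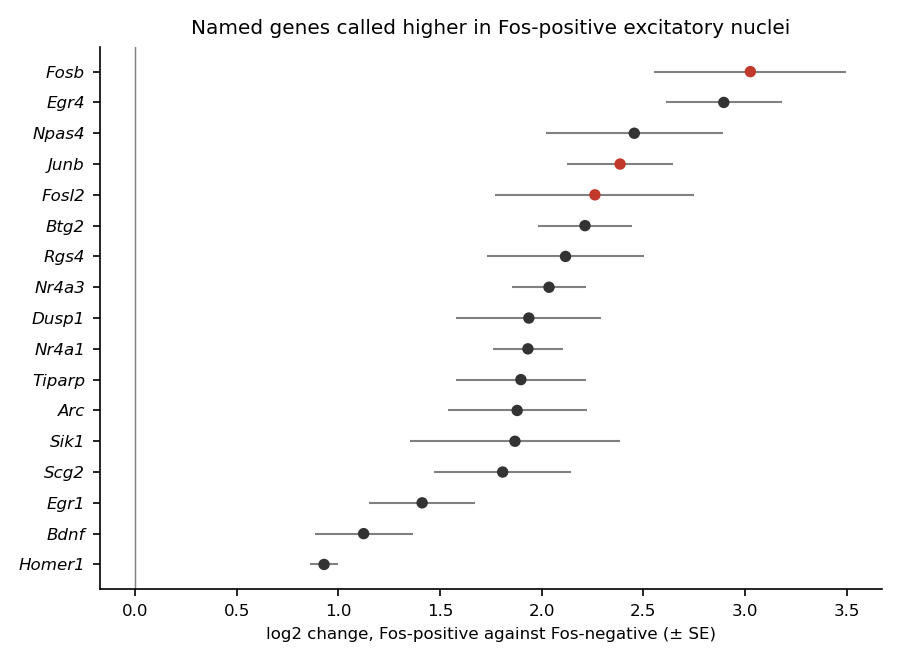
Log2 change between Fos-positive and Fos-negative excitatory neuron-like nuclei, with SE bars, for the named genes that rose; AP-1 members are in red and other genes in black. Fosb has the largest change of the genes shown, 3.03, and Homer1 the smallest, 0.93.

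In all, 44 genes rose in Fos-positive nuclei, the 3 members included, and 61 fell. Brat1, which encodes a partner of the DNA damage kinase ATM, had 0 UMIs in positive nuclei and 732 in negative ones, at least 3.12-fold lower when a floor of 3 counts over all positive nuclei is used. Kif26b, a kinesin-like protein, was at -1.93 (SE 0.442), Ubac2 at -1.13 (SE 0.315), Commd10 at -0.97 (SE 0.264) and the proteoglycan Spock1 at -0.92 (SE 0.234). Agbl4, a tubulin deglutamylase, was at -1.78 (SE 0.498) in 1 of the 2 gene rows with that symbol. The adjusted p-values of these 6 genes in edgeR ran from 0.00348 to 0.0449. The call for Brat1 was lost in 5 of 7 alternatives. Of 8 alternatives, the calls for Kif26b and Spock1 were lost in 5, that for Commd10 in 6 and those for Ubac2 and Agbl4 in 7. Fos-positive nuclei were not spread evenly over the clusters: their share ran from 1.30% to 2.29% by library in L6 CT-like and from 0.496% to 0.920% in Glis3/Otof-led nuclei. When negative nuclei were drawn in the cluster proportions of the positive ones, 43 genes rose and 8 fell, 37 and 8 of them called before as well. Fosb, Junb and Fosl2 were called there too, at 3.56, 2.45 and 2.55, and none of the 6 falling genes named here was.

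The promoters of 6 members, all but Fos and Jun, were matched by symbol in the RefSeq promoters of the GRCr8 build, each from 250 bases before to 50 after the gene's start. Shown are those of the 3 members that rose together in Fos-positive nuclei and that of Jund, which was not called there. Capitals mark matches, on either strand, to TGACG, the core of the cyclic AMP response element through which activity-driven kinases reach many immediate early genes; the full element TGACGTCA holds that core on each strand. The Fosb window is chr1:88089135-88089434, minus strand, the Fosl2 window chr6:30039220-30039519, minus strand, the Junb window chr19:40080876-40081175, plus strand, and the Jund window chr16:18769722-18770021, minus strand.
Fosb: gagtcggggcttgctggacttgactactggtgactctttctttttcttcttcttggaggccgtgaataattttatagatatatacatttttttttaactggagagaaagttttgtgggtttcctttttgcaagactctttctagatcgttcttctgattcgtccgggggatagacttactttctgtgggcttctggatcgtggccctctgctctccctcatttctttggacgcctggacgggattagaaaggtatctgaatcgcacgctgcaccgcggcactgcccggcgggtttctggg
Fosl2: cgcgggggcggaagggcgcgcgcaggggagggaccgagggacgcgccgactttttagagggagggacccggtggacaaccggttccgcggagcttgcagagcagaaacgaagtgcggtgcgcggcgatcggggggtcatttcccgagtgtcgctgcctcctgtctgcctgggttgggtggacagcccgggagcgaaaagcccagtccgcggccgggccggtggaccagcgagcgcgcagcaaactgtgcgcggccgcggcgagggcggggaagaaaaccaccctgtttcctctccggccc
Junb: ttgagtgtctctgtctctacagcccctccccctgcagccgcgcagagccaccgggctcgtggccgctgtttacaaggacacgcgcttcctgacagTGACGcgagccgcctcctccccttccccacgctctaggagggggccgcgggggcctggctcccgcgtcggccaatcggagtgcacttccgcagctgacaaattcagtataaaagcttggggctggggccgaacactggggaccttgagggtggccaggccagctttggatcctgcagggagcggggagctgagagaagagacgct
Jund: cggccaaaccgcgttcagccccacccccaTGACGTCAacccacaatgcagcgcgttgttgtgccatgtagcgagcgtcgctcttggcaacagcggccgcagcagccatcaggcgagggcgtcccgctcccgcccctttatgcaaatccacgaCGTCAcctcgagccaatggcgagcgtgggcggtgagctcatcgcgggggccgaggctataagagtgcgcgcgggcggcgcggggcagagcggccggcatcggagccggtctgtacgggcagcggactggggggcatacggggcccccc

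Counted from 1 at the window's 5′ end, the Junb window held 1 core, at position 96, and the Jund window held 3, at positions 30, 33 and 153, of which the first pair form 1 full element. Among the windows not shown, that of Fosl1 held 2 cores, at positions 103 and 167, and that of Jdp2 1, at position 154. The core is in 21.2% and the full element in 1.83% of the 33469 rat promoters of the table. The Fosb and Fosl2 windows held none of these letters. None of the 6 windows held TGACTCA or TGAGTCA, the site bound by AP-1 itself, which is in 4.63% of all promoters, or a match to the CArG box of serum response factor, which is in 1.64%. A match is not a site in use, and the absence of one says only that these letters are not in the window.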

How the data were processed

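Single nuclei of rat orbitofrontal cortex were profiled with a 3' droplet assay in 4 libraries. The authors deposited UMI count matrices per gene and nucleus, made with Cell Ranger 7.0.0 per the file headers. The submitters' processing notes name a human build, while the gene identifiers are rat; no source used here gives the rat build. The 8 members and all gene lists were chosen with earlier results of these data known.

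Nuclei with at least 500 genes and at most 5% mitochondrial counts were kept, 7602 to 14645 per library from 37758602 to 44034787 deposited UMIs. Doublets were scored with Scrublet in Scanpy 1.11.5. Since its own threshold had not worked in saline replicate 1, the top 0.8% of barcodes per 1000 barcodes were removed in every library. Nuclei were clustered from 3000 variable genes, without the members and activity genes (30 components, 20 neighbours, Leiden resolution 1). A cluster was named only where at least 3 markers were found in 10% of its nuclei and no other name scored close. The L4/5 intratelencephalic name was given to no cluster. These naming thresholds, and leaving out a cluster with over 75% of its nuclei from 1 library, were set after the data were seen.

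UMIs were summed per library and class with at least 50 nuclei in each library. METH was compared with saline by edgeR 4.0.16's quasi-likelihood test (R 4.3.3, TMM scaling, filterByExpr), with Benjamini-Hochberg adjustment and a threshold of 0.05. Fos-positive nuclei had at least 1 Fos UMI at 2000 UMIs and were compared with negative ones of the same library with the library as a term. Intervals and floors cover counting error only. The tests were tried on simulated data. Alternatives were DESeq2 1.42.0, no filter, a replicate block, other filters and depths, and each library left out. Named genes were the members, called list genes or else the 2 of each list with the smallest p, and the called genes with the largest changes in the same direction in all 4 libraries.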

Additional observations from a re-analysis of the deposited data

Results flagged for a closer look

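A cluster with excitatory markers came mostly from saline replicate 1 and was left out of the comparisons as reported. Levels of its saline replicate 1 nuclei are given against those of that library's excitatory neuron-like nuclei. The share of all genes that stood higher in this cluster was not counted. Fosb was at 10.6 CPM there against 5.86, Fosl2 at 11.2 against 9.60, Jun at 7.92 against 4.65, Junb at 35.0 against 28.6, Jund at 20.5 against 10.97 and Jdp2 at 87.8 against 82.1. Fosl1 was at 6.27 CPM from 19 UMIs against 5.78, and Fos at 3.30 CPM from 10 UMIs against 6.17. The median depth of these nuclei was 1264.5 UMIs, and what this has to do with the levels was not tested.

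Fosl2 had the METH libraries below the saline libraries in inhibitory neuron-like nuclei (log2 -0.30, SE 0.366) and above them in microglia-like nuclei (log2 0.24, SE 0.546). In inhibitory neuron-like nuclei 15.8% of the genes tested lay below in the same way, and the share lying above in microglia-like nuclei was not counted. The microglia-like value rests on 36 UMIs. The difference between these changes was not tested, and neither change passed the threshold.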

How the results depend on the processing

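No member was called between METH and saline under any alternative. Calls were summed over 18 classes, so a gene called in several classes, such as Cst3, counts each time. The sum was 36 in the comparison as reported, 31 with at least 1000 genes per nucleus and 32 at Leiden resolution 2. It was 22 with doublets kept, where Vip- and Lamp5-like nuclei gave no value. It was 16 in DESeq2, 21 when thinned to 1000 UMIs and 163 with no filter on low counts. Leaving out 1 library gave 127 to 682, and the cause was not tested. The libraries' replicate numbers did not pair them (r = -0.00509 over 11995 genes), and a replicate block gave 151 calls, none of a member. The comparison of the METH effect between inhibitory and excitatory neuron-like nuclei called 0 genes as reported, 10 with no filter and 2 to 56 with 1 library left out. For Fos-positive nuclei the 105 calls became 42 in DESeq2, 74 at 1000 UMIs, 127 with no filter, 51 against negatives in the cluster proportions of the positives (chosen after the data were seen) and 59 to 77 with 1 library left out; the 3 members called became 1, Junb, at 1000 UMIs.

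Some changes of uncalled genes turned sign. Thinned to 1000 UMIs, Fos was at -0.17, Jund at 0.053 and Mafg at -0.0042 between METH and saline in excitatory neuron-like nuclei, and Jdp2 at -0.33 in Fos-positive ones. With doublets kept, Fosb was at -0.24 in inhibitory neuron-like nuclei. With 1 library left out, changes in excitatory neuron-like nuclei ran from -0.064 to 0.21 for Fosl2, from -0.074 to 0.32 for Jun and from -0.26 to 0.12 for Junb. In inhibitory ones they ran from -0.64 to 0.74 for Jun and from -0.043 to 0.12 for Jdp2. The difference between these classes ran from -0.42 to 0.53 for Fosl1, and the change of Jun in Fos-positive nuclei from -0.88 to 1.12. Fosl1 kept its direction in excitatory neuron-like nuclei in 12 of 12 alternatives, from -1.23 to -0.78, with adjusted p-values of edgeR or DESeq2 from 0.0990 to 1. Counting nuclei as positive from 2 Fos UMIs left too few for a value.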
